A study of Mus musculus with 2 samples.

Results

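A set of 10 genes of the major histocompatibility complex (MHC) class I presentation pathway was followed in immune cells of osteosarcoma grafts. They were H2-K1, H2-D1, B2m, Tap1, Tap2, Tapbp, Nlrc5, Psmb8, Psmb9 and Psmb10, taken by symbol as 10 of the 32285 genes that both libraries list. The grafts came from 143B, which is an established line of human osteosarcoma cells, placed under the skin of the right flank of female nude mice that were 4 weeks old. The mice received 10 mg/kg of control IgG, a human IgG1 isotype, or 10 mg/kg of an antibody against CD3L1, from day 7 and every 3 days for 4 doses. Nude mice lack a working thymus and mature T cells but keep myeloid cells, natural killer (NK) cells and B cells. Each treatment gave 1 droplet single-cell RNA library of cells bound by CD45 magnetic beads, from a set of 3 tumors. No cell could be traced to a tumor, so each treatment is 1 sample, and treatment and library cannot be told apart.

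MHC class I molecules show fragments of a cell's own proteins at its surface, where CD8 T cells read them and where NK cells sense their loss. A heavy chain (H2-K1 or H2-D1 in mice) pairs with the light chain B2m around a peptide. Peptides are cut by the proteasome, moved into the endoplasmic reticulum by the transporter formed by Tap1 and Tap2, and loaded with the help of tapasin (Tapbp). Interferons raise the whole set, partly through the transactivator Nlrc5, and exchange 3 catalytic proteasome subunits for the inducible subunits Psmb8, Psmb9 and Psmb10, which form the immunoproteasome. Dendritic cells of the cDC1 kind are known for presenting material taken up from other cells on class I molecules, while neutrophils carry short-lived, compact transcriptomes.

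The control IgG library held 8557 cells with a median of 5526 transcripts counted by molecular identifier (UMIs), and the anti-CD3L1 library held 11269 cells with a median of 8267 UMIs. Cells were assigned to classes by marker genes that include none of the 10 genes, and the names below carry "-like" for that reason. The classes did not have equal weight in the libraries: 5457 neutrophil-like cells stood in the control IgG library against 436 in the anti-CD3L1 library, with median depths of 4646 and 2228 UMIs. Monocyte-like cells numbered 1333 and 3389, macrophage-like cells 452 and 3594, and NK-like cells 140 and 808. Dendritic, innate lymphoid (ILC) and B cell classes passed 50 cells only in the anti-CD3L1 library. In the anti-CD3L1 monocyte gate 1 of the 10 leading genes, ranked against the other classes of that library, was a monocyte marker. In the control IgG and anti-CD3L1 libraries 1049 and 2139 cells fell in no gate. The libraries shared 26 cell barcodes, and leaving these out changed the count of calls in NK-like cells only, where Nlrc5 lost its call. Ptprc, which encodes CD45, was counted in 95.1% of control IgG and 91.1% of anti-CD3L1 cells, and 6 T cell markers together made up at most 22.7 of every 1000000 UMIs in either library. Droplets of 10 to 100 UMIs, which hold free RNA, carried 721 neutrophil marker UMIs per 10000 after control IgG and 16.7 after anti-CD3L1.

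A level is given in CPM, the UMIs of the gene per 1000000 UMIs of the class, with an exact Poisson 95% interval where it matters. UMIs of this 3' assay do not grow with transcript length, but capture differs between genes, so levels were compared across classes rather than between genes. A gene was called higher or lower where the ratio of 2 CPM values reached a fold of 1.5 and its exact conditional binomial 95% interval stayed clear of 1. Intervals cover counting error only. With 1 library a treatment there was no replicate check and no test between treatments. The share of all tested genes that met the same rule is given for each comparison whose calls are counted, except under most alternative settings at the end.

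Of the 10 genes, 7 lie on mouse chromosome 17 in the MHC region, by GENCODE M21 on the GRCm38 build. There Psmb9 (chr17:34181987-34187764, minus strand), Tap1 (chr17:34187553-34197225, plus strand), Psmb8 (chr17:34197721-34201454, plus strand) and Tap2 (chr17:34203527-34216321, plus strand) follow each other. H2-K1 (chr17:33996017-34000347, minus strand), Tapbp (chr17:33915899-33929292, plus strand) and H2-D1 (chr17:35262730-35267499, plus strand) lie on both sides. B2m is on chromosome 2 (chr2:122147686-122153083, plus strand), and Nlrc5 (chr8:94434356-94527272, plus strand) and Psmb10 (chr8:105935735-105938444, minus strand) are on chromosome 8. Reads from near-identical family members are a known uncertainty for class I heavy chains. Of the 441 windows of 60 bases in the last 500 bases of each gene's longest coding transcript, none of H2-K1, and 4.99% of H2-D1, also stood in transcripts of another gene. No window of the other 8 genes did. For H2-D1 the other gene was most often Adsl. Only exact matches were counted, so near-identical stretches of family members were not measured. The reference strain may differ from these mice at the heavy chain genes, so the split between H2-K1 and H2-D1 remains uncertain.

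RefSeq promoter windows on GRCm38.p6 were held for 8 of the 10 genes, and those of H2-K1, H2-D1 and B2m are shown because they share a layout that few promoters have. The letters TGACG followed after 20 bases by ATTGG, on either strand, are the core of the X2 and Y boxes to which the Nlrc5 complex is known to be recruited. This arrangement stood in the 250 bases before the start of 30 of 32851 promoters (0.0913%), and H2-K1, H2-D1 and B2m were among them. The interferon-response core AANNGAAA, on either strand, stood in the same 3 promoters, beside 21.3% of all promoters, and the kappa B letters (GGG, any 2 bases, then TTCCC) stood in those of H2-K1 and H2-D1, beside 1.53%. Without the spacing, TGACG stood in 5 of the 8 promoters, beside 17.8% of all promoters, and ATTGG in 6, beside 33.8%. The promoters of Tap1 and Psmb9 held both. These letters were chosen after the sequences had been read, and a match is a description of the sequence only. The RefSeq start of H2-D1 lies downstream of its GENCODE M21 start, so its stretch falls inside the gene span given above. Each stretch below runs 5′ to 3′ on the strand of its gene, with the matched letters in capitals, at chr17:34000351-34000466 (minus strand), chr17:35262915-35263030 (plus strand) and chr2:122147542-122147646 (plus strand) of GRCm38.p6:
H2-K1: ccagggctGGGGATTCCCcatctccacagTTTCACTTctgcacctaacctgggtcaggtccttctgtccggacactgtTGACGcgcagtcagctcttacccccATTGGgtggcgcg
H2-D1: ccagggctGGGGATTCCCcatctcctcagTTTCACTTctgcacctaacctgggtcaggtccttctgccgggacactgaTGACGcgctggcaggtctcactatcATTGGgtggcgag
B2m: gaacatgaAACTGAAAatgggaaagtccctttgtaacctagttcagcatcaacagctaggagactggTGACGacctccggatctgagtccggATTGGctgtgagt

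The 3 genes of the surface complex were counted at high levels in every class. H2-K1 stood in the control IgG library at 1515 CPM in NK-like, 1254 in macrophage-like, 850 in monocyte-like and 492 in neutrophil-like cells, a range of 3.08-fold. H2-D1 followed the same order from 2625 to 1596 CPM, a range of 1.65-fold. B2m was highest in macrophage-like cells at 2223 CPM and lowest in neutrophil-like cells at 1261 CPM, with the intervals of macrophage-like and NK-like cells overlapping. Neutrophil-like cells were therefore last there for each of the 3 genes.

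The 9 anti-CD3L1 classes of at least 50 cells spread H2-K1 from 1669 CPM in NK-like to 675 CPM in neutrophil-like cells. Mature dendritic cell-like cells, which carry Ccr7 and Fscn1, stood at 1665 CPM and overlapped NK-like cells. H2-D1 was highest in macrophage-like cells at 2499 CPM and lowest in B cell-like cells at 1512 CPM. By the mean of each cell's share of UMIs, in place of summed UMIs, mature dendritic cell-like cells were highest for H2-K1 and H2-D1. B2m was highest in mature dendritic cell-like cells at 2244 CPM and lowest in B cell-like cells at 1011 CPM. The 37 cDC1-like cells, kept outside this order for their number, held 822 CPM of H2-K1, 1281 CPM of H2-D1 and 989 CPM of B2m. Their H2-D1 and B2m values lay below those of each of the 9 classes, although both intervals (1195 to 1371 and 914 to 1068 CPM) overlapped those of B cell-like cells.

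**Figure D1:**
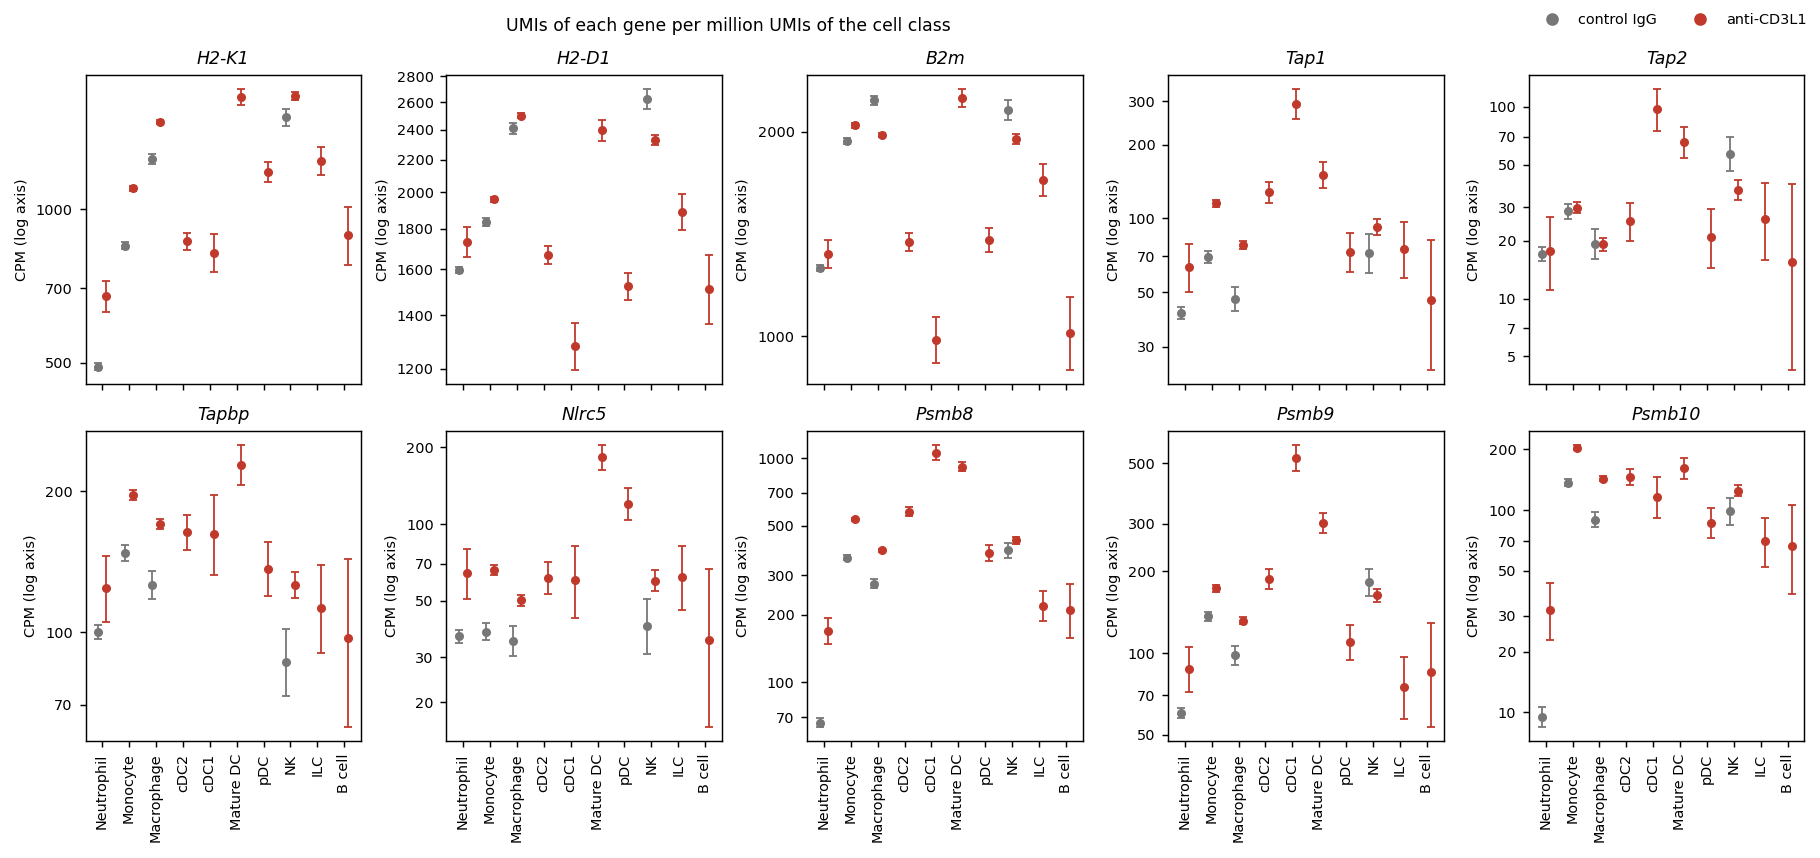
Level of each gene in CPM (log axis, a separate scale for each gene) by cell class, in the control IgG library (gray) and the anti-CD3L1 library (red). Points are the summed UMIs of a class as CPM, and bars are exact Poisson 95% intervals. Classes under 50 cells are left out except the 37 cDC1-like cells. Psmb10 in control IgG neutrophil-like cells, at 9.53 CPM, and Tap1, Psmb8 and Psmb9 in cDC1-like cells stand apart from the other classes, while Tap2 in cDC1-like cells overlaps mature dendritic cell-like cells.

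The transporter genes took another order. Tap1 stood between 41.3 CPM in neutrophil-like and 72.3 CPM in NK-like cells after control IgG. After anti-CD3L1 it ran from 46.6 CPM in B cell-like to 151 CPM in mature dendritic cell-like cells, and cDC1-like cells held 294 CPM (253 to 338). Tap2, the partner chain, was scarce: 17.1 to 57.0 CPM across the 4 control IgG classes, with NK-like cells highest. Tap2 reached in the anti-CD3L1 library 65.5 CPM in mature dendritic cell-like cells and 97.3 CPM (74.8 to 125) in cDC1-like cells, against 25.3 CPM in cDC2-like cells. Below NK-like cells, every neighbor in the anti-CD3L1 order of Tap2 from monocyte-like cells down overlapped the next. Tapbp varied less, from 86.4 to 148 CPM after control IgG and from 97.2 to 228 CPM after anti-CD3L1, with mature dendritic cell-like cells highest.

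Nlrc5 hardly separated the classes of the control IgG library. Its levels were 40.0 CPM in NK-like, 37.8 in monocyte-like, 36.3 in neutrophil-like and 34.8 in macrophage-like cells, and every neighbor in that order overlapped the next. Mature dendritic cell-like cells of the anti-CD3L1 library held 183 CPM (164 to 204) and plasmacytoid dendritic cell (pDC)-like cells 120 CPM (104 to 138), while the other 7 classes lay between 35.0 and 65.8 CPM. Nlrc5 was the gene by which neutrophil-like cells differed least from monocyte-like cells, with 36.3 against 37.8 CPM after control IgG and 64.2 against 65.8 CPM after anti-CD3L1.

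Psmb8 and Psmb10 gave the widest ranges of the 10 genes in both libraries. Psmb8 ran after control IgG from 66.2 CPM in neutrophil-like to 388 CPM in NK-like cells, 5.86-fold, and Psmb9 from 60.3 to 182 CPM in the same classes, 3.02-fold. Psmb10 ran from 9.53 CPM in neutrophil-like to 136 CPM in monocyte-like cells, 14.3-fold. The cDC1-like cells held 1058 CPM of Psmb8 and 524 CPM of Psmb9, and mature dendritic cell-like cells 916 and 302 CPM, above each of the other 8 anti-CD3L1 classes for both genes. Psmb10 did not follow: monocyte-like cells led at 204 CPM, and cDC1-like cells held 116 CPM.

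Neutrophil-like cells thus combined near-equal Nlrc5 with very little Psmb10. Against monocyte-like cells of the control IgG library Psmb10 was lower by 3.84 on the log2 scale (3.67 to 4.01), from 308 UMIs in 5457 cells against 2255 UMIs in 1333 cells. Psmb8 was lower by 2.44 and Psmb9 by 1.18, H2-K1 by 0.79, Tap1 by 0.76, Tap2 by 0.74 and B2m by 0.62. H2-D1 at 1596 and 1835 CPM and Tapbp at 100.2 and 148 CPM stayed under the fold of 1.5. In control IgG cells 7 of the 10 genes were lower in neutrophil-like cells by the rule, where 7820 of all 13041 genes tested were. Over the 10 genes the median was -0.75, and over all genes tested -1.14, so that most of these differences were no larger than that of a typical gene. After anti-CD3L1, 8 of the 10 genes were lower in neutrophil-like cells, where 38.8% of all tested genes were, with medians of -0.73 and -0.98. There Psmb10 stood at 32.1 CPM (22.9 to 43.7) from 40 UMIs, against 204 CPM in monocyte-like cells. Free RNA held 68.2 CPM of Psmb10 in the control IgG and 186 CPM in the anti-CD3L1 library, above the neutrophil-like cells of each. Psmb10 and Psmb8 lay well below the median of all genes in both libraries, Psmb9 at -1.18 and -0.99 lay just below it, and the other 7 genes lay above it.

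Each inducible subunit replaces 1 constitutive partner in the proteasome core: Psmb8 replaces Psmb5, Psmb9 replaces Psmb6, and Psmb10 replaces Psmb7. The share of the pair's UMIs that came from the inducible gene was compared across classes. For Psmb8 with Psmb5 it was 69.3% (67.6 to 70.9) in neutrophil-like, 69.6% in monocyte-like and 68.8% in macrophage-like cells after control IgG. For Psmb9 with Psmb6 it was 70.7% (69.0 to 72.4) in neutrophil-like cells, against 45.0% (43.7 to 46.4) in monocyte-like and 32.8% (30.7 to 35.0) in macrophage-like cells. For Psmb10 with Psmb7 it was 21.7% in neutrophil-like cells (308 Psmb10 and 1109 Psmb7 UMIs), against 57.2% (55.6 to 58.7) and 47.4% (44.6 to 50.3). Neutrophil-like cells were thus level with the other myeloid classes for the first pair, highest for the second and lowest for the third. The partner genes took part in this, since neutrophil-like cells held 24.9 CPM of Psmb6 and 34.3 CPM of Psmb7, against 167 and 102 CPM in monocyte-like cells.

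Among these 3 myeloid classes neutrophil-like cells were again highest for Psmb9 and lowest for Psmb10 after anti-CD3L1. Neutrophil-like cells gave 79.1% (73.7 to 83.8) for Psmb8, 62.6% (55.0 to 69.9) for Psmb9 and 35.7% (26.9 to 45.3) for Psmb10. Macrophage-like cells had the lowest Psmb9 share of that library at 26.4% (25.7 to 27.0), beside 368 CPM of Psmb6. Among dendritic classes, cDC1-like cells had a Psmb9 share of 70.0% (65.7 to 74.1) and mature dendritic cell-like cells 57.5% (54.3 to 60.7), against 46.1% (43.3 to 48.8) in cDC2-like cells.

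**Figure D2:**
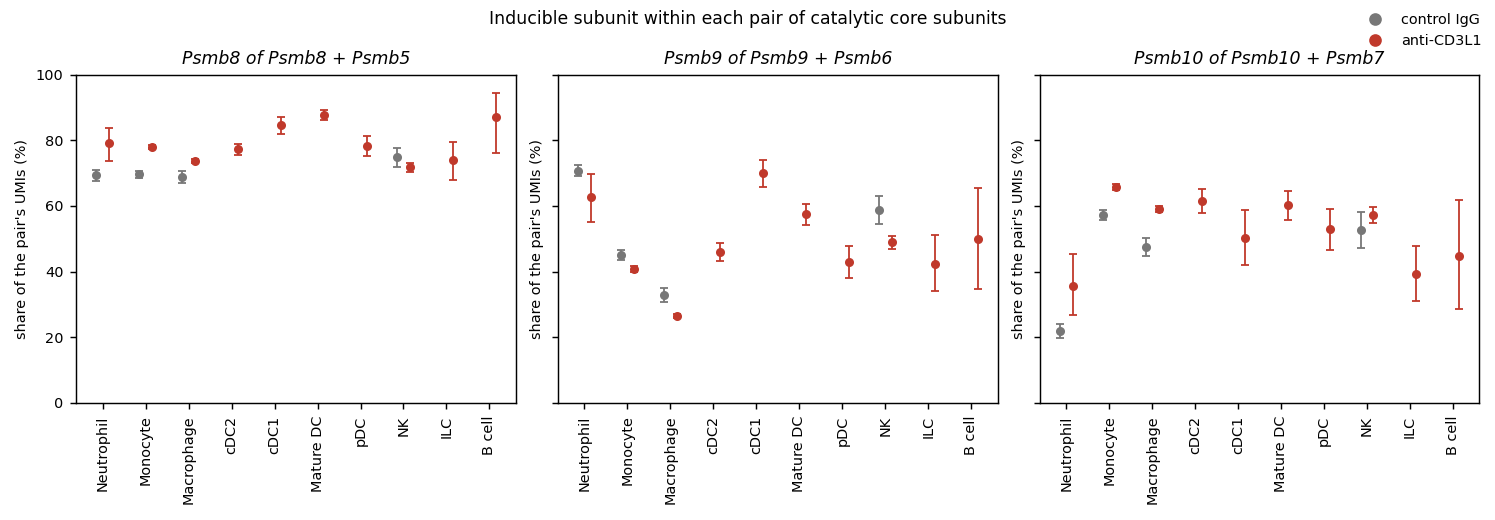
Share of UMIs from the inducible gene within each pair of proteasome core genes, in percent, by cell class and library (control IgG gray, anti-CD3L1 red). Bars are exact binomial 95% intervals. Neutrophil-like cells given control IgG are at 70.7% for Psmb9 but at 21.7% for Psmb10, the highest and the lowest point of their panels.

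The dendritic classes differed within the pathway. Relative to cDC2-like cells, 6 of the 10 genes were higher in mature dendritic cell-like cells, where 13.3% of all tested genes were higher and 22.9% lower. Nlrc5 was 1.57 higher on the log2 scale (1.31 to 1.83) and Tap2 1.37 higher (0.95 to 1.80), and H2-K1, B2m, Psmb8 and Psmb9 were higher by 0.94, 0.70, 0.67 and 0.68. In cDC1-like cells 4 of the 10 genes were higher than in cDC2-like cells, where 12.0% of all tested genes were higher and 16.4% lower. These were Tap2 by 1.94 (1.44 to 2.44), Psmb9 by 1.48 (1.28 to 1.67), Tap1 by 1.19 (0.94 to 1.45) and Psmb8 by 0.87. The surface complex did not move with them: H2-K1 differed by -0.08, H2-D1 by -0.38 and B2m by -0.48, none past the fold of 1.5. Nlrc5, at 60.2 CPM in cDC1-like and 61.6 CPM in cDC2-like cells, was level. The genes called in mature dendritic cell-like cells thus came from both the machinery and the complex, and those called in cDC1-like cells were both transporter chains and 2 proteasome subunits.

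Cells were also thinned to 1000 UMIs each, which sets the depth equal between classes. In thinned cells a B2m UMI was found in 67.6% of 5381 control IgG neutrophil-like cells and 85.1% of 449 macrophage-like cells, and H2-K1 in 36.5% and 68.2%. The surface complex as a whole was missed in few cells: 5.85% of control IgG neutrophil-like cells and 1.56% of macrophage-like cells had no UMI of H2-K1, H2-D1 or B2m. At least 1 UMI of the other 7 genes stood in 23.8% of neutrophil-like and 53.0% (50.2 to 55.7) of monocyte-like cells after control IgG. After anti-CD3L1 these shares were 35.8% (31.2 to 40.6) and 69.0% (67.4 to 70.6), and 94.6% (81.8 to 99.3) of cDC1-like cells. Psmb10 was seen in 0.781% (0.563 to 1.05) of thinned control IgG neutrophil-like cells and 11.3% (9.69 to 13.2) of monocyte-like cells, and without thinning in 3.81% and 69.7%. No class is known to lack class I genes, so no background share could be read from one.

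The question of the study's design was what the antibody changed in the immune cells of the tumor. Between the libraries, 2 of the 10 genes were higher in macrophage-like cells of the anti-CD3L1 library, where 8.29% of all tested genes were higher and 8.24% lower. Tap1 stood at 47.2 CPM in control IgG and 77.7 CPM in anti-CD3L1 macrophage-like cells, 0.72 higher on the log2 scale (0.55 to 0.90). Psmb10 stood at 89.8 and 143 CPM, 0.67 higher (0.54 to 0.80). Nlrc5, Psmb8, Tapbp and Psmb9 were above the control by 0.53, 0.49, 0.43 and 0.42, short of the fold of 1.5, with intervals clear of 0. H2-K1 differed by 0.24 and H2-D1 by 0.05, and B2m was 2223 CPM in control IgG and 1978 CPM in anti-CD3L1 cells, a difference of -0.17 (-0.19 to -0.14). The median over the 10 genes was 0.43, beside 0.02 over all genes tested. The ratios of the 6 machinery genes other than Tap2 thus exceeded those of H2-K1, H2-D1 and B2m, and Tap2 was level at 19.3 and 19.2 CPM. In cells thinned to 1000 UMIs the Tap1 ratio was 0.76 and that of Psmb10 0.37, short of the rule.

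In monocyte-like cells 2 of the 10 genes were higher, where 21.1% of all tested genes were higher and 5.11% lower. Tap1 was 69.7 CPM in control IgG and 115 CPM in anti-CD3L1 cells, 0.73 higher (0.63 to 0.82), and Nlrc5 37.8 and 65.8 CPM, 0.80 higher (0.67 to 0.93). The median of the 10 genes, 0.39, stood beside 0.25 for all genes. Neither gene met the rule when libraries were scaled by median-of-ratios size factors, which lowered every monocyte ratio by 0.24 and put H2-D1, B2m and Tap2 below 0. That scaling split all tested genes into 1661 higher and 1302 lower, from 2926 and 708. Of the 10 leading genes of the monocyte gate, 5 were monocyte markers in the control IgG and 1 in the anti-CD3L1 library. Leading genes were ranked against the other classes of the same library, and dendritic, B cell and fibroblast classes were among these only for anti-CD3L1. The counts of 5 and 1 thus rest on unlike comparators. How far a difference between the gated cells enters the ratios was not tested. Neutrophil markers allowed a share of free RNA of at most 3.12% in control IgG and 27.2% in anti-CD3L1 monocyte-like cells, and with that share subtracted Psmb8 (0.60) joined Tap1 (0.75) and Nlrc5 (0.97) past the rule.

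In neutrophil-like cells 4 of the 10 genes were higher, where 30.1% of all tested genes were higher and 3.54% lower, and the median of the 10 genes, 0.50, was level with the 0.51 of all genes. Psmb10 stood at 9.53 CPM in control IgG and 32.1 CPM in anti-CD3L1 cells, 1.75 higher (1.24 to 2.23), and Psmb8 at 66.2 and 170 CPM, 1.36 higher (1.15 to 1.56). With classes taken from clusters these ratios were 4.04 and 2.38, where the anti-CD3L1 neutrophil cluster held 743 cells, 434 of them in the neutrophil gate. Tap1 and Nlrc5 were 0.62 and 0.82 higher. Median-of-ratios scaling lowered every neutrophil ratio by 0.56 and split all genes into 1339 higher and 1346 lower, from 3358 and 395. Under it Psmb10 (1.19) and Psmb8 (0.80) still met the rule, Tap1 and Nlrc5 did not, and H2-K1, H2-D1, B2m, Tap2, Tapbp and Psmb9 fell below 0. Neutrophil marker UMIs were a median of 1782 per 10000 in control IgG and 995 per 10000 in anti-CD3L1 neutrophil-like cells. The 10 leading genes of the neutrophil gate, ranked against the other classes of each library, also differed in part between the libraries. Stfa2, Cstdc4 and Cstdc5 were among them only after control IgG, and Ngp, Camp and Wfdc21 only after anti-CD3L1. The part of these differences between the gated cells in the ratios was not tested.

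In NK-like cells Nlrc5 was higher, at 40.0 and 59.98 CPM or 0.59 (0.22 to 0.98), and Tap2 lower, at 57.0 and 36.7 CPM or -0.63 (-0.97 to -0.29). That is 1 of the 10 genes each way, where 9.69% of all tested genes were higher and 3.56% lower. The Nlrc5 ratio was at the 1.5-fold limit, and its call was lost with median-of-ratios scaling or with the 26 shared barcodes left out. Tap2 rested on 97 and 278 UMIs, and its direction turned in cells thinned to 1000 UMIs (0.64). A Tap2 UMI stood there in only 4 of 140 control IgG and 35 of 807 anti-CD3L1 cells. The intervals of these shares (0.784% to 7.15% and 3.04% to 5.98%) overlapped, so the thinned cells settle no direction. H2-D1 and B2m differed by -0.17 and -0.14, and the median of the 10 genes, 0.14, equaled that of all genes.

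**Figure D3:**
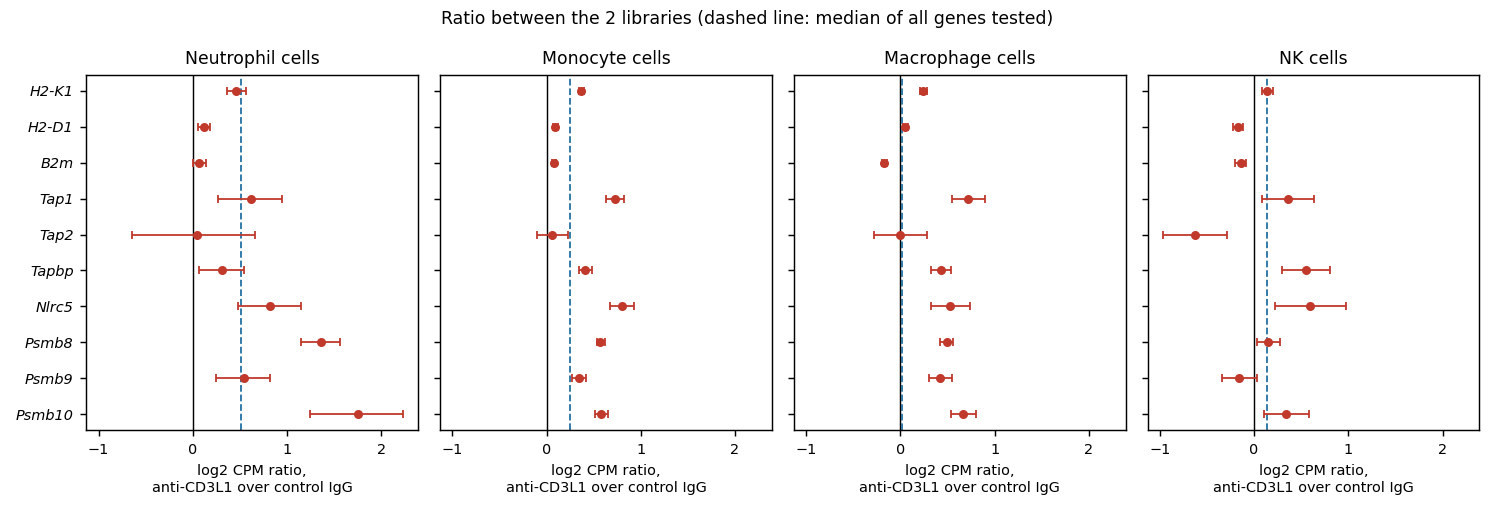
Log2 ratio of CPM between the anti-CD3L1 and the control IgG library for each gene, in 4 cell classes (x axis, 0 is equal). Bars are exact conditional binomial 95% intervals for counting error, and the dashed line is the median of all genes tested in that class. In macrophage-like cells 6 machinery genes, H2-K1 at 0.24 and H2-D1 at 0.05 lie right of the dashed line at 0.02. Tap2 at -0.00 and B2m at -0.17 lie left of it.

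Cells differ in interferon response within a class, so 9 interferon-stimulated genes (ISGs) outside the pathway were used to sort cells. A cell was called ISG-low under 10 and ISG-high from 30 ISG UMIs per 10000, which are ranges of a continuous score and not cell types: 271 of 5457 control IgG neutrophil-like cells lay between 24 and 36, and 450 between 8 and 12. Of control IgG cells, 11.3% of neutrophil-like, 20.6% of monocyte-like and 12.2% of macrophage-like cells were ISG-high. After anti-CD3L1 36.9%, 25.2% and 16.5% were. Median depths in ISG-high and ISG-low cells were 4432 and 4613 UMIs in control IgG neutrophil-like cells and 9483 and 10109 UMIs in anti-CD3L1 macrophage-like cells.

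The 10 genes moved with this score. After control IgG all 10 were higher in ISG-high than in ISG-low monocyte-like cells, where 8.65% of all tested genes were, and all 10 in macrophage-like cells, where 6.85% were. In neutrophil-like cells 9 of the 10 were higher, where 5.05% of all tested genes were, with H2-D1 at 1478 and 2044 CPM short of the fold. After anti-CD3L1 the counts were 7 of 10 in monocyte-like cells (6.04% of all genes), 7 of 10 in macrophage-like cells (5.82%) and 5 of the 9 tested in neutrophil-like cells (6.61%). The genes that missed the rule in anti-CD3L1 monocyte-like and macrophage-like cells were the same 3 in both classes, H2-K1, H2-D1 and B2m.

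Tap1 or Nlrc5 gave the largest difference in each of the 6 combinations of class and library. In control IgG monocyte-like cells Tap1 was 34.6 CPM in ISG-low and 171 CPM in ISG-high cells, 2.31 on the log2 scale (2.12 to 2.50). Nlrc5 was 20.2 and 91.4 CPM there, 2.18 (1.92 to 2.44). In control IgG neutrophil-like cells Nlrc5 was 20.1 and 116 CPM, 2.53 (2.33 to 2.73), and Tap1 24.5 and 113 CPM, 2.21 (2.02 to 2.40). The Nlrc5 level, which ranged 1.15-fold between the control IgG classes, thus differed 5.78-fold within 1 of them. Psmb10 in the same neutrophil-like cells went from 8.12 to 17.9 CPM, so that ISG-high cells remained under the 94.2 CPM of ISG-low monocyte-like cells. B2m went from 1543 to 2888 CPM in control IgG monocyte-like cells, 0.90 (0.87 to 0.94), and from 1849 to 2157 CPM in anti-CD3L1 macrophage-like cells, 0.22 (0.19 to 0.25).

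**Figure D4:**
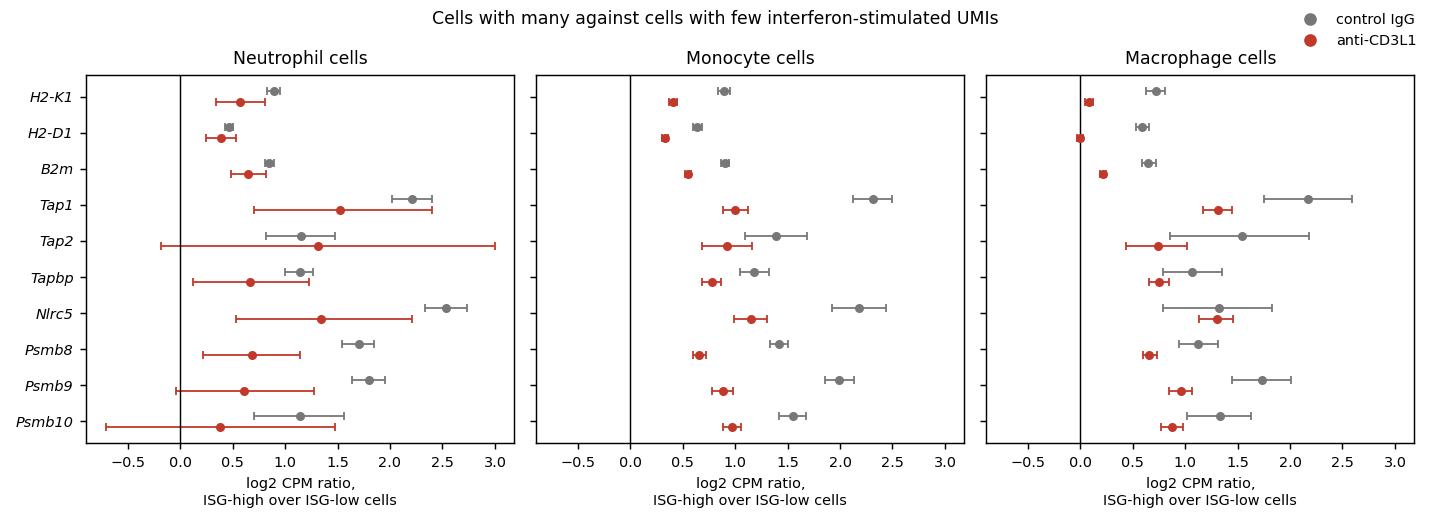
Log2 ratio of CPM between ISG-high and ISG-low cells of the same class and library for each gene (control IgG gray, anti-CD3L1 red). Bars are exact conditional binomial 95% intervals. H2-K1, H2-D1 and B2m lie nearest to 0 in the anti-CD3L1 macrophage-like cells, from -0.00 to 0.22, and Tap1 reaches 2.31 in control IgG monocyte-like cells.

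The libraries were then compared within each range of the score. In ISG-low macrophage-like cells Tap1 was 27.6 CPM in control IgG and 55.5 CPM in anti-CD3L1 cells, 1.01 higher (0.73 to 1.29), and in ISG-high cells it was 124 and 138 CPM, a difference of 0.15 (-0.18 to 0.49). Over the 10 genes the median log2 ratio was 0.49 in ISG-low, 0.12 in ISG-middle and -0.07 in ISG-high macrophage-like cells, beside 0.01, 0.06 and 0.11 for all genes. In monocyte-like cells it was 0.61, 0.15 and 0.01, beside 0.23, 0.19 and 0.25. There Tap1 was 34.6 and 86.7 CPM in ISG-low cells, 1.33 higher, and 171 and 173 CPM in ISG-high cells. Tap1 levels of the libraries were thus apart in the ISG-low range and near each other in the ISG-high range. Score and depth also differed between the libraries in these classes. Median scores were 5.57 in control IgG and 10.45 in anti-CD3L1 macrophage-like cells. Of these cells, 35 of 452 and 557 of 3594 lay between 8 and 12. ISG-low macrophage-like cells had median depths of 14616 and 10109 UMIs, and ISG-low monocyte-like cells 12677 and 8115 UMIs. The part of these differences in the Tap1 ratios was not tested. In neutrophil-like cells the median log2 ratios over the 10 genes were 0.52, -0.07 and -0.05, beside 0.50, 0.46 and 0.43 for all genes. B2m was 3135 CPM in control IgG and 2157 CPM in anti-CD3L1 ISG-high macrophage-like cells, a difference of -0.54 (-0.61 to -0.47), from 55 and 593 cells. No test of these differences between ranges was possible with 1 library a treatment. Free RNA held 41.7 CPM of Tap1 in the control IgG and 98.6 CPM in the anti-CD3L1 library. At most 3.12% and 27.2% of the RNA of monocyte-like cells could be free RNA. Its part in the ratios within each range was not tested.

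Other genes of the pathway were taken from lists, and their counts in macrophage-like cells stand beside the 8.29% of all tested genes that were higher and the 8.24% that were lower there. Psmb6, the partner of Psmb9, was the constitutive subunit that differed most, at 201 CPM in control IgG and 368 CPM in anti-CD3L1 cells (0.87, 0.79 to 0.95), while Psmb5 (0.15) and Psmb7 (-0.01) did not meet the rule. Of 11 other core proteasome subunits none met it (median 0.13), with Psmb4 at 0.34, Psma6 at -0.34 and Psma5 at -0.32. None of 6 activator and assembly genes did (0.18), with the assembly genes Psmg2 at -0.54 and Pomp at 0.34 and the activator subunit Psme1 at 0.39. Of 8 folding and loading genes of the endoplasmic reticulum none met it (median -0.02), with the chaperones Calr at 0.26 and Canx at -0.29 and the peptide-trimming enzyme Erap1 at -0.31. Among 13 tested heavy chain genes outside the 10, 1 had a ratio past the rule, H2-M2, with 5 and 208 UMIs. H2-M2 reached the filter of 20 UMIs through the anti-CD3L1 cells, so no call is drawn from it. Cd1d1 (13 and 37 UMIs) and Mr1 (15 and 136 UMIs), which present lipids and metabolites, did not meet the rule. Of 6 cross-presentation genes 1 was higher, the cDC1 transcription factor Batf3, at 6.42 and 11.8 CPM, while Wdfy4 (0.41) and Sec61a1 (0.38) did not meet the rule.

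Of 13 transcription regulators 2 were higher in macrophage-like cells, against the same 8.29% of all genes. Irf1, an interferon-induced factor, stood at 103 and 180 CPM (0.80, 0.69 to 0.92). Ciita, the transactivator of MHC class II that is related to Nlrc5, stood at 19.0 and 33.6 CPM (0.83, 0.56 to 1.11), and the NF-kappa B subunit Rela was at 0.47. In monocyte-like cells Irf1 stood at 116 and 236 CPM and Ciita at 12.8 and 59.4 CPM. Of 10 genes that lean towards interferon-gamma, 4 were higher and 1 lower in macrophage-like cells, where 8.29% and 8.24% of all genes were. The guanylate-binding proteins Gbp2 and Gbp5 were 1.31 and 0.85 higher, and the immunity-related GTPase Iigp1 1.25 higher. The 4 include the guanylate-binding protein Gbp4 at 2.11, with 19 and 467 UMIs. Gbp4 reached the filter of 20 UMIs through the anti-CD3L1 cells, so its ratio is not read further. The chemokine Cxcl10 was lower, at 475 and 281 CPM (-0.76, -0.82 to -0.70). Of the 9 ISGs used as the score, 1 was higher in macrophage-like cells, Irf7 at 232 and 376 CPM, with Cmpk2 at 0.54 and Rsad2 at 0.52 short of the rule. All 9 were higher in neutrophil-like cells (30.1% of all genes), none in monocyte-like cells (21.1%) and 4 in NK-like cells (9.69%).

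Ifng, whose product is a known inducer of the pathway, was highest of the 4 compared classes in NK-like cells, at 115 CPM in control IgG and 222 CPM in anti-CD3L1 cells. Macrophage-like cells held 0 UMIs of Ifng in 452 control IgG cells and 40 UMIs in 3594 anti-CD3L1 cells, and no fold is given for a gene that reached the filter through 1 library. Ifnb1 was lower there, at 8.77 and 3.78 CPM (-1.22, -1.67 to -0.74), and the kinase Jak2 was at -0.37. The NK cell receptor genes Klra7 (1 and 51 UMIs), Klrd1 (0 and 56 UMIs) and Klra3 (8 and 142 UMIs) were scarce in macrophage-like cells. They reached the filter through the anti-CD3L1 cells, so no call is drawn from them. NK-like cells were 1.64% of control IgG and 7.17% of anti-CD3L1 cells, and the part of their RNA in these low counts was not tested. These came from a list of 9 receptor genes, which also held Pirb and Lilrb4a. In NK-like cells themselves 2 of the 9 listed genes were higher and 3 lower, where 9.69% of all tested genes were higher and 3.56% lower. Klrd1 is also a marker of the NK gate, so its counts depend on the gating and it is no independent member of that count.

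The 10 genes did not vary as 1 block over the 13 combinations of class and library with at least 50 cells. On log2(CPM + 10), H2-K1, H2-D1 and B2m correlated with each other at Pearson's r from 0.70 to 0.88, and the other 7 with each other from 0.28 to 0.93 (median 0.66). Between the groups r ran from 0.03 to 0.73 (median 0.49). Among 5872 genes that reached 50 CPM somewhere, the 5 whose levels were most like the mean of the 10 were Psme2 (0.946), Sp110 (0.944), Arl5a (0.930), Psme1 (0.922) and Eif4e2 (0.916). Psme1 and Psme2 encode the proteasome activator PA28 and ran from 68.8 to 813 CPM and from 63.9 to 716 CPM. The 13 points share libraries and, in part, cell classes, so these values describe the pattern and were not tested.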

How the data were processed

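Per the labels and file headers, the deposited values of the 2 droplet libraries are raw UMI counts for each gene in each barcode, not normalized. The submitters' processing notes name Cell Ranger 7.1.0, Seurat 5.1.0 and the build GRCm39, without saying which step used which. A deposited table of the authors' own macrophage comparison (fold changes, p-values and shares of cells) was not used. Strand and read settings are not given in the sources used here.

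Barcodes with at least 500 UMIs, more than 200 and fewer than 6000 genes and under 5% mitochondrial UMIs were kept as cells, with no doublet removal. Cells were gated on the share of UMIs from marker lists (neutrophil-like from 400 per 10000, other gates under 200 per 10000). The gate limits were set after the files had been opened, on marker genes alone. UMIs were summed per class and library and scaled to CPM, and genes with at least 20 UMIs over both groups were tested by the rule of a 1.5-fold ratio with an exact conditional binomial 95% interval clear of 1. Shares carry exact (Clopper-Pearson) binomial intervals. Cells were thinned without replacement to 1000 UMIs, leaving out 76 and 17 neutrophil-like cells. Named genes were all 10 members, up to 3 genes of each list with the largest ratio in macrophage-like cells, Psmb5, Psmb6, Psmb7, Irf1 and Ciita, and the 5 genes most like the members. One further gene of the rule is not reported here. Members and lists were chosen with earlier results of these data known. Ifng in NK-like cells, Gbp5 and Cxcl10 were chosen after their values were seen. Python 3.11.15, numpy 2.4.6, scipy 1.17.1, pandas 2.3.3 and scanpy 1.11.5 were used.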

Additional observations from a re-analysis of the deposited data

Results flagged for a closer look

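Differences between classes in the direction of a library ratio drew attention for H2-D1 and B2m, whose counting intervals lay above 0 in some classes and below 0 in others. H2-D1 had log2 ratios, anti-CD3L1 over control IgG, of 0.12 in neutrophil-like, 0.09 in monocyte-like and 0.05 in macrophage-like cells, and -0.17 in NK-like cells. B2m had a ratio of 0.08 in monocyte-like cells, -0.17 in macrophage-like cells and -0.14 in NK-like cells. With 1 library a treatment the difference between classes was not tested, and every one of these ratios was smaller than the 1.5-fold limit. With median-of-ratios scaling, which lowers all monocyte ratios by 0.24 and all neutrophil ratios by 0.56, the positive values of those 2 classes turn negative.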

How the results depend on the processing

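No paired analysis was possible because each treatment is 1 library, and no replicate could be left out for the same reason. Of the 10 genes, 4 were called higher in neutrophil-like cells, 2 in monocyte-like, 2 in macrophage-like and 1 in NK-like cells, and 1 lower in NK-like cells. With any fold allowed the counts were 8, 9, 8 and 6 higher, and 1 lower in macrophage-like and 3 lower in NK-like cells. The share of all genes called with any fold is not given, while the median log2 ratios of all genes tested were 0.51, 0.25, 0.02 and 0.14. Median-of-ratios scaling left 2, 0, 2 and 0 higher, beside 1339 of 11167, 1661 of 13849, 1134 of 14072 and 677 of 11110 genes tested. The share of all genes is likewise not given under the settings that follow. Classes by clustering gave 4 higher in monocyte-like and 0 in either direction in NK-like cells. At least 1000 UMIs per barcode, or the shared barcodes left out (added after seeing the data), gave 0 higher in NK-like cells, and the mean of per-cell shares 2. Thinning to 1000 UMIs gave 1 higher in macrophage-like cells and 0 in either direction in NK-like cells. There Tap2 reversed to 0.64, with a Tap2 UMI in only 4 of 140 control IgG and 35 of 807 anti-CD3L1 cells. A stricter gate gave 0 lower in NK-like cells. The other counts stayed within 1.5 times. The order of classes also moved with the mean of per-cell shares. The highest class became mature dendritic cell-like for H2-K1 and H2-D1 after anti-CD3L1, and monocyte-like for Tap1 and Psmb8 after control IgG. The lowest became neutrophil-like for Nlrc5 after control IgG, and neutrophil-like for Tap2 and ILC-like for Tapbp after anti-CD3L1. Of 40 log2 ratios, those within their counting interval numbered 40 for the filters on UMIs and mitochondrial share, for doublet scores and for shared barcodes, 36 for per-cell shares, 34 for free RNA subtracted, 33 for the stricter gate, 21 for clustering, 17 for median-of-ratios scaling and 16 for thinning. Psmb10 in neutrophil-like cells moved most, from 1.75 to 4.04 with clustering, where 434 of the 743 cells in the anti-CD3L1 neutrophil cluster were gated as such. Subtracting free RNA, for neutrophil-like cells by macrophage markers (added after seeing the data), left it at 1.78. The filter on low counts could not change these member counts, because all 10 genes passed it in each of the 4 classes. The shares of the proteasome subunit pairs also depended on the classes. With classes by clustering 17 of these shares left their binomial interval and 22 stayed within it. With free RNA subtracted 4 left it and 35 stayed, and with at least 1000 UMIs per barcode all 39 stayed.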

Other observations

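Cells in no gate also carried the 10 genes. The 2139 such anti-CD3L1 cells held 1041 CPM of H2-K1, 91.3 CPM of Tap1 and 114 CPM of Psmb10, and the 1049 such control IgG cells held 825, 46.9 and 67.1 CPM. Clusters made without the 10 genes left 3 that could not be named from the markers.

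One unnamed cluster of 121 control IgG cells was led by Ctsk, a lysosomal protease, Atp6v0d2, a proton pump subunit, and Lpl, a lipase. It held 5.21 CPM of Nlrc5, below each gated class, beside 1469 CPM of H2-D1 and 349 CPM of Psmb8. A cluster of 62 anti-CD3L1 cells led by Rpl39l, Gm5535 and Mei4 was below each gated class for the surface complex, with 172 CPM of H2-K1, 237 CPM of H2-D1 and 244 CPM of B2m at a median of 10709 UMIs. None of its 10 leading genes was a gating marker. The grafts were human and the counts are of mouse genes, and whether these are mouse cells was not tested. A cluster of 342 shallow anti-CD3L1 cells, with a median of 1175 UMIs and led by Gm26917 and Cdk8, held 91.0 CPM of Nlrc5 and 31.0 CPM of Psmb10.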
